A study of Rattus norvegicus with 11 samples.

Results

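miR-132 and miR-212 are a pair of related microRNAs (miRNAs, small regulatory RNAs that repress the mRNAs they pair with), and their levels are described here in pancreatic islets of rats. They were taken as the array entries with the unstarred names rno-miR-132 and rno-miR-212, which are 2 of the 340 miRNA names shared by both array designs of the study. Both were measured on all 11 arrays and both were among the 152 names that were detected on at least 5 arrays and tested. Islets came from daughters, 13 weeks old, of Sprague Dawley fathers given either a high-fat diet (HFD, pellets with 43% fat) or standard chow (Control, 9% fat) until mating at 15 weeks with chow-fed females. All daughters were female, were weaned to chow at 3 weeks and were not themselves given the high-fat diet, so the groups differ in the father's diet alone as far as the labels say. Per the labels, glucose tests and an insulin test were done in both groups before the islets were taken. The comparison asks if miRNA levels in the daughters' islets differ with what the father ate. HFD had 5 arrays (603, 607, 644 and 653 on a first array design, 640 on a second) and Control had 6 (602, 613, 615 and 639 on the first, 635 and 652 on the second). Fathers and litters are not named in the labels, so arrays may come from sisters, and p-values measure the spread between these samples.

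miR-132 and miR-212 are processed from hairpins that lie side by side and are transcribed together. Their transcription is raised by CREB, the transcription factor that cyclic AMP and calcium signalling activate, and both miRNAs are best known from active neurons. Beta cells use the same signals when glucose and gut hormones trigger insulin release, and in a rat beta-cell line these miRNAs have been linked to stronger glucose-stimulated secretion. The arrays measured neither CREB nor the shared precursor, so the link to CREB is background and was not tested.

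The sequences show why the pair is treated as 1 family. Capitals mark the seed, bases 2 to 8, through which a miRNA finds its targets, and sequences are from RefSeq on the GRCr8 rat assembly. The unstarred array names were taken as the 3p arms and the starred names as the 5p arms, after the older nomenclature, which could not be checked because the array files used here give no probe sequence. The 5p arms are shown because they come from the same precursors.
rno-miR-132-3p: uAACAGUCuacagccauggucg
rno-miR-212-3p: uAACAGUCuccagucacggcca
rno-miR-132-5p: aCCGUGGCuuucgauuguuacu
rno-miR-212-5p: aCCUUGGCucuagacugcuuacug
The 3p arms share the seed AACAGUC, which no other of the 724 mature rat sequences in that table holds, while each 5p seed occurs once. From the 5′ end the 3p arms are identical over the first 9 bases and at 17 of 22 positions. With miR-132 given first, they differ by A10C, C14U, U17C, U20C and G22A. On GRCr8 the mature miR-212-3p lies at chr10:60521811-60521832 and miR-132-3p at chr10:60522091-60522112, both on the plus strand and with 280 bases between their starts. The hairpin of miR-132 (chr10:60522033-60522133, plus strand) is printed with both mature arms in capitals, to show where they sit in it.
rno-mir-132 hairpin: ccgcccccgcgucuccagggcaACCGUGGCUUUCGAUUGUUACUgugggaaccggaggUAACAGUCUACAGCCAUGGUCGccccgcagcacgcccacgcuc
In the gene table of that assembly no other gene overlaps the pair. The neighbouring genes are Hic1, which encodes a transcriptional repressor, and behind it Smg6 on the miR-212 side, and the lncRNA LOC120095261 followed by Ovca2 and Dph1 on the miR-132 side.

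The 2 miRNAs were each read by 2 probes with 10 spots per probe, and the same 4 probe names were used on both array designs. The deposited value is the spot's processed signal, a brightness in arbitrary units from which the scanner software had already subtracted the background. Brightness of different probes does not rank miRNAs by amount, so levels are compared between arrays and not between miRNAs. The 8 arrays of the first design detected 105 to 157 of the shared miRNAs and the 3 of the second 130 to 184, and no spot was saturated. The noisiest first-design array was HFD 653: its negative control spots, without those the software left out as outliers, had an SD of 11.6, where the slide's remaining 7 arrays had 2.03 to 2.41, and it detected the fewest miRNAs, 105. As a check of the islet label, all 8 endocrine marker miRNAs were detected on all 11 arrays. These include miR-375, the main miRNA of beta cells, and the miR-7 and miR-200 families. miR-216a, a marker of the enzyme-secreting pancreas around the islets, was detected on all 11 too, so detection alone does not show how pure the islets were.

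miR-132 lay close to the detection limit. It was detected on 4 of 5 HFD arrays, all but HFD 653, and on 4 of 6 Control arrays, all but 635 and 652. The software's total signal was 5.20, 9.88, 9.25 and 0.753 times its own error on HFD 603, 607, 644 and 653, against 5.93, 7.43, 5.43 and 8.44 times on Control 602, 613, 615 and 639. On the second design it was 6.74 times its error on HFD 640, while Control 635 and 652 were written at the software's lowest value. Probe A_26_P00001346 carried most of the signal, with all 10 spots well above background on 4 arrays and no such spot on 3 arrays. Probe A_26_P00001347 had no spot well above background on 8 of 11 arrays and read below 0 on HFD 653. The values of miR-132 therefore rest mainly on 1 probe.

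miR-212 was well above background throughout. All 10 spots of both its probes, A_26_P00001479 and A_26_P00001480, were well above background on each of the 11 arrays. The lowest probe reading was 12.2 times the SD of that array's negative controls and the highest was 247 times. The software's total was 11.9 to 13.4 times its own error over the 11 arrays. Across the first-design arrays the scaled signals of its 2 probes had a Pearson r of 0.983 (n = 8, both probes read the same RNA), against 0.862 for the probes of miR-132.

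**Figure D1:**
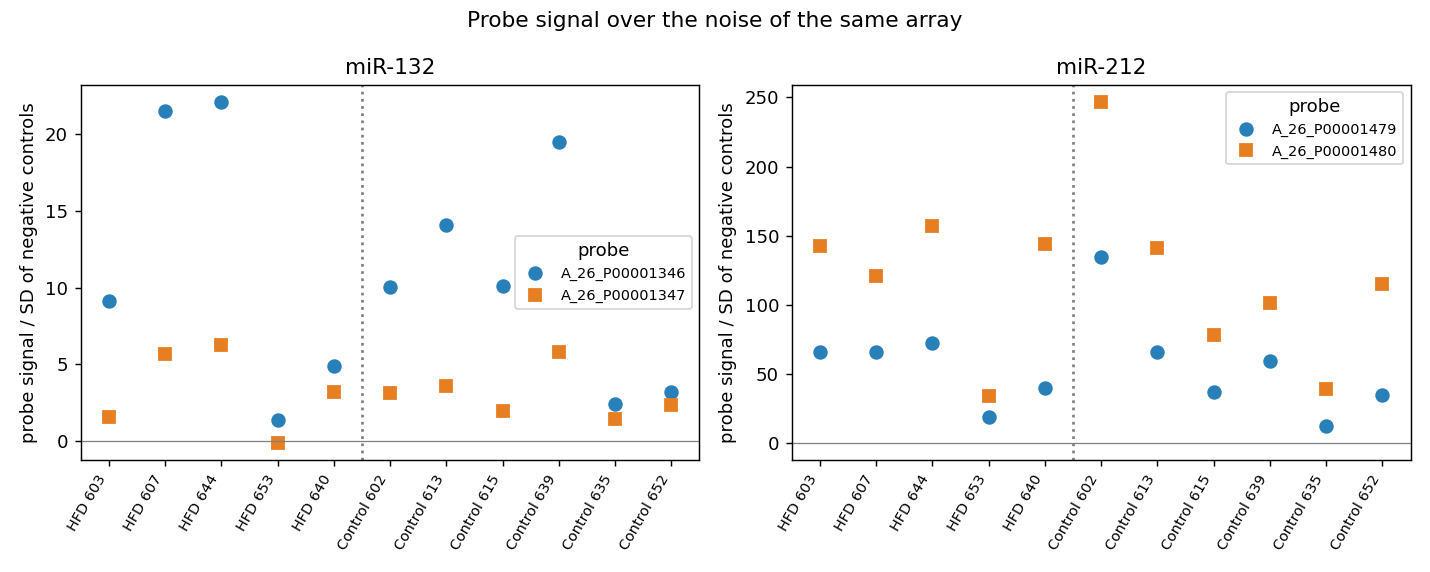
Signal of each probe of miR-132 (left panel) and miR-212 (right panel), divided by the SD of the negative control spots of the same array, with the 5 HFD arrays left of the dotted line and the 6 Control arrays right of it. The vertical scales differ: the miR-132 probes reach 22.1 at most, and probe A_26_P00001347 falls just below 0 on HFD 653, while the miR-212 probes run from 12.2 to 247.

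No difference in miR-132 between the daughters of HFD and Control fathers was detectable. Signals were divided by the array's 75th percentile and brought back to a common level. The scaled signal of miR-132 was 35.7, 63.6, 63.4 and 22.5 on HFD 603, 607, 644 and 653, against 35.7, 39.9, 37.0 and 61.1 on Control 602, 613, 615 and 639. On the second design it was 34.6 on HFD 640, against 33.3 and 17.2 on Control 635 and 652. HFD 607, HFD 644 and Control 639 thus formed the upper end of the first design, HFD 653 the lower end, and the groups overlapped. On the log2 scale the first-design means were 5.41 ± 0.72 in HFD and 5.40 ± 0.36 in Control (SD, n = 4 each). The fit over both designs gave an HFD minus Control difference of 0.13 ± 0.31 (SE) on the log2 scale, a fitted ratio of 1.098-fold with a 95% interval of 0.676 to 1.78-fold (limma adjusted p = 0.987). The exact 2-sided permutation p, with labels permuted within array design, was 0.7, and 0.988 when adjusted over the 152 miRNAs. The interval thus leaves room for a change in either direction. The second design alone gave 0.53, where miR-132 was not detected on either Control array, and the first design alone gave 0.0028 (interaction of diet and design, limma adjusted p = 0.996). Without HFD 653, the noisy array, it was 0.37 (limma adjusted p = 0.988). With the percentile taken over all shared names the difference was -0.090, and with median scaling -0.018. Those scalings moved the median of all 152 miRNAs by -0.21 and -0.15, and relative to that median miR-132 was at 0.056 and 0.066, against 0.069 with the scaling used for the other values. Under quantile normalisation the difference was -0.24, or -0.17 relative to the median.

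miR-212 read higher in HFD on average, without passing the test. Its scaled signal was 695.4, 437.3, 512 and 956.7 on HFD 603, 607, 644 and 653, against 1038, 468.4, 352.4 and 388 on Control 602, 613, 615 and 639. On the second design it was 789.6 on HFD 640, against 449.1 and 463.7 on Control 635 and 652. On that design the HFD array lay above both Control arrays, whereas on the first design Control 602 was the highest of all 8 arrays and the groups overlapped. The first-design log2 means were 9.28 ± 0.50 in HFD and 8.99 ± 0.71 in Control (SD, n = 4 each), and 3 of 4 HFD arrays were above the Control mean. The fitted difference over both designs was 0.42 ± 0.30 (SE) on the log2 scale, or 1.33-fold, with a 95% interval of 0.834 to 2.13-fold (limma adjusted p = 0.987, exact 2-sided permutation p = 0.229, and 0.988 adjusted over all 152). Its unadjusted p was 0.202, which ranked 20th of the 152, and its size ranked 17th. Taken singly, the probes gave 0.37 ± 0.35 for A_26_P00001479 and 0.43 ± 0.33 for A_26_P00001480 (SE). They read the same RNA on the same arrays, so their shared sign is not independent support. A single array moved this value by over 1.5 times, since without Control 602 the difference was 0.68 ± 0.21 (SE; limma unadjusted p = 0.0105, adjusted p = 0.798). The first design alone gave 0.29 and the second 0.79, and that gap was not detectable either (interaction, limma adjusted p = 0.996).

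In the whole table limma called 0 of 152 miRNAs at an adjusted p of 0.05 (0%), and 0 of the 2 members. At an unadjusted p of 0.05 it called 3 of 152 (1.97%), again with 0 of the 2 members among them. Those 3, named after their values were seen, were miR-150, miR-296* and miR-431 (limma adjusted p = 0.987 each). Groups that did not overlap within either array design were seen for 1 of 152 miRNAs (0.658%), miR-150, and for 0 of the 2 members. miR-150 was detected on 7 of 11 arrays, and its first-design Control readings lay at or near the lowest value allowed. Differences above 0, as both members had, were found for 108 of 152 (71.1%), with a median difference of 0.066 on the log2 scale over all 152. The standard errors of miR-132 and miR-212 were among the wider ones, 27th and 38th from the largest, against a median of 0.18.

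**Figure D2:**
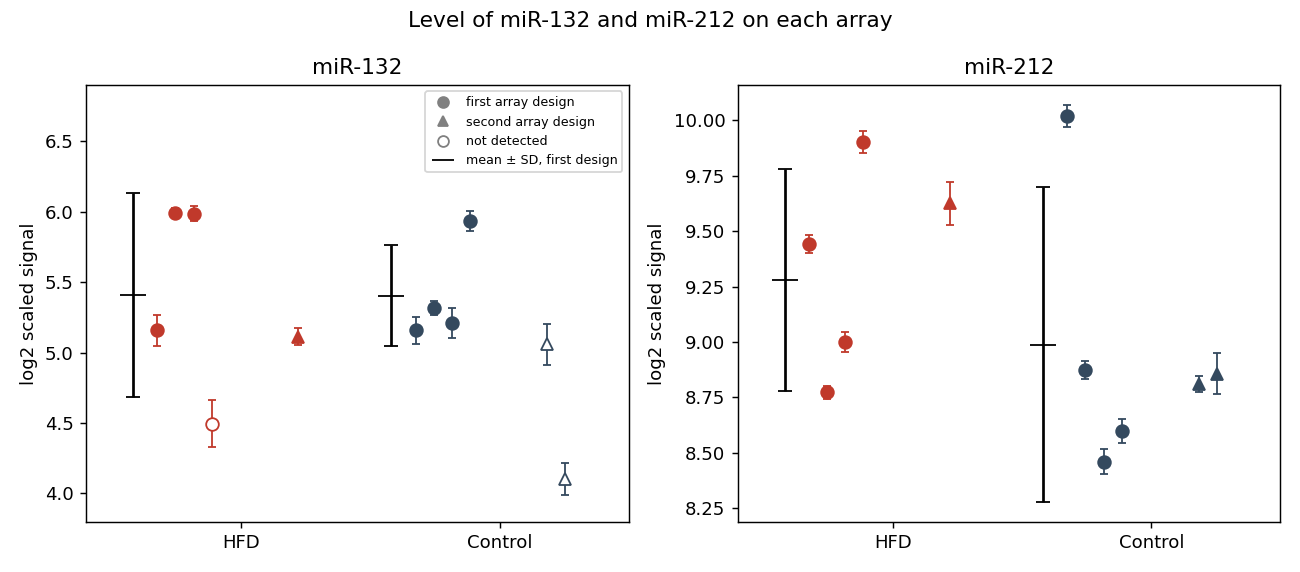
Log2 scaled signal of miR-132 (left panel) and miR-212 (right panel) on each array, HFD left of Control. Circles are first-design arrays, triangles second-design arrays, open symbols arrays on which the miRNA was not detected, thin bars the standard error over spots, and the black dash with its bar the first-design mean ± SD (n = 4 each). The 2 groups overlap in both panels, and Control 602 is the highest first-design array for miR-212 at 10.02.

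Among first-design arrays the SD of miR-212 within groups, pooled over both, was 0.61 on the log2 scale (0.50 in HFD and 0.71 in Control). Its highest and lowest arrays on that design differed 2.95-fold. The pooled SD of miR-132 was 0.57 (0.72 in HFD and 0.36 in Control), with HFD 653, where it was not detected, included. The median standard error over spots was 0.047 for miR-212 and 0.083 for miR-132. It covers the spots of 1 array and leaves out RNA preparation, labelling and hybridisation, so differences between rats and between array runs cannot be told apart. In the order of miR-212 levels, from Control 602 down through HFD 653, HFD 603, HFD 644, Control 613, HFD 607 and Control 639 to Control 615, 3 of the 7 neighbouring pairs lay within 2 standard errors over spots. In the order of miR-132 levels 5 of 7 neighbouring pairs did. The wider gaps there lay below HFD 607, HFD 644 and Control 639, and above HFD 653, where miR-132 was not above background. Control 613, Control 615, Control 602 and HFD 603 lay between these gaps. The standard error over spots cannot show that these are distinct groups of arrays.

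The 2 miRNAs did not move together across arrays. The 3 first-design arrays with the highest miR-212, Control 602, HFD 653 and HFD 603, were also the 3 with the lowest miR-132. Over the 8 first-design arrays, Pearson's r between their log2 levels was -0.65 (exact permutation p = 0.0882, adjusted p = 0.121) and Spearman's rho was -0.57 (exact permutation p = 0.151, adjusted p = 0.252), where adjustment was over a family of 5 relations. Neither passed, and without HFD 653 and HFD 607, the arrays farthest from the median of miR-132, r was -0.42 (n = 6, exact permutation p = 0.433), so the size of r rests on those arrays, of which HFD 653 had no detected miR-132. Without Control 615 r was -0.82 (n = 7, exact permutation p = 0.0331), and without HFD 653 it was -0.46 (n = 7, exact permutation p = 0.324). Centred by diet group it was -0.67 (exact permutation p = 0.0608), and it was -0.70 within slide row 1 and -0.68 within slide row 2 (4 arrays each). With the second design added and each design centred, r was -0.42 over 11 arrays (exact permutation p = 0.219). The size and sign depend on the processing, since r was -0.31 with unscaled signals, -0.26 in the authors' deposited tables and 0.59 after normexp background correction.

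The brightness of the arrays moved with miR-132. Its scaled level had a Pearson r of 0.84 with the array's own 75th percentile of signal (log2, n = 8, exact permutation p = 0.0109, adjusted p = 0.0544) and a Spearman rho of 0.93 (exact permutation p = 0.00223, adjusted p = 0.0112). Without HFD 603 and HFD 653, the arrays farthest from the median brightness, r was 0.77 (n = 6, exact permutation p = 0.103). For miR-212 the same relation had an r of -0.64 (exact permutation p = 0.0971, adjusted p = 0.121) and a rho of -0.45 (exact permutation p = 0.267, adjusted p = 0.334), with r at -0.39 without the same 2 arrays. With the number of miRNAs detected per array, r was 0.75 for miR-132 (exact permutation p = 0.0230, adjusted p = 0.0576; rho 0.69) and -0.46 for miR-212 (exact permutation p = 0.263, adjusted p = 0.263; rho -0.024). Without HFD 653 and HFD 607 these were 0.086 and 0.28. The 75th percentile is also the divisor of the scaling, so it enters both sides of its relation with miR-132 and of its relation with miR-212. In the scaled level it enters as a divisor, which by itself moves r downward for both. The part of the 75th percentile in these relations and in that between the 2 miRNAs was not tested.

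**Figure D3:**
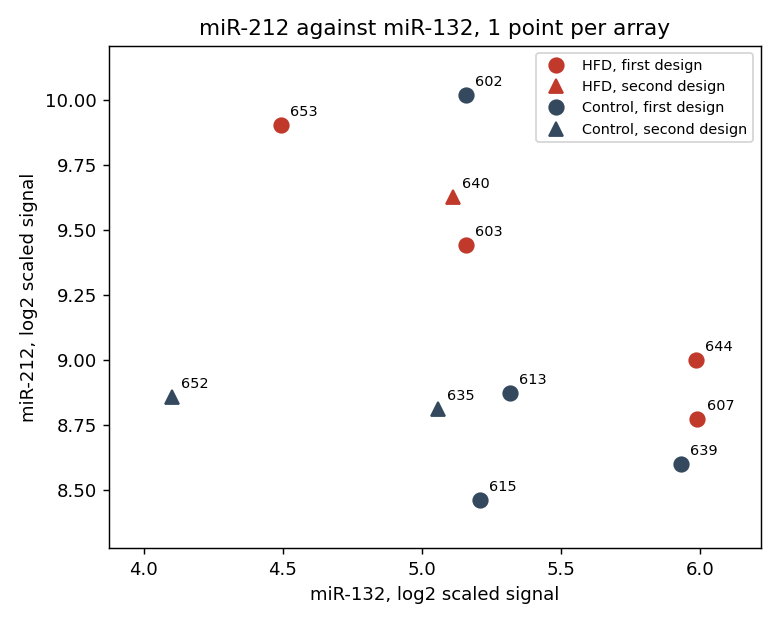
Log2 scaled signal of miR-212 (vertical axis) against that of miR-132 (horizontal axis), 1 point per array, numbered by sample, in red for HFD and dark blue for Control. Among the first-design arrays (circles), HFD 653 lies at the upper left, at 4.50 and 9.90, where miR-132 was not detected. HFD 607 lies farthest right, at 5.99 and 8.77, and Control 615 is lowest, at 5.21 and 8.46. Over these arrays r was -0.65 (n = 8, exact permutation p = 0.0882).

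The per-array gap between the 2 miRNAs did not differ detectably with the father's diet. On the log2 scale the miR-212 minus miR-132 value was 4.28, 2.78, 3.01 and 5.41 on HFD 603, 607, 644 and 653, against 4.86, 3.55, 3.25 and 2.67 on Control 602, 613, 615 and 639. It was 4.51 on HFD 640, against 3.75 and 4.75 on Control 635 and 652. The values of HFD 653, Control 635 and Control 652 rest on miR-132 readings that were not detected and are not measured gaps. Only its change between arrays can be read, since the probes differ. HFD minus Control was 0.28 ± 0.59 (SE), with a 95% interval of -1.09 to 1.65 and an exact 2-sided permutation p of 0.633, and without HFD 653 it was -0.088 (exact permutation p = 0.886). The interval is too wide to say whether the 2 miRNAs differ in their response.

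Split by slide row, with 2 arrays per group in each, both fitted differences read with opposite signs in the 2 rows. The split was made after the data were seen, and whether the rows differ was not tested. The first-design slide had 2 rows, each with 2 HFD and 2 Control arrays. In row 1 (HFD 603 and 607 with Control 602 and 613) the HFD minus Control difference was 0.34 ± 0.35 for miR-132 and -0.34 ± 0.52 for miR-212 (SE). In row 2 (HFD 644 and 653 with Control 615 and 639) it was -0.33 ± 0.67 for miR-132 and 0.92 ± 0.38 for miR-212 (SE), and none of the 4 values passed limma's test (adjusted p from 0.776 to 0.936). With the row as a further block the differences were 0.013 for miR-132 and 0.40 for miR-212. The acinar markers miR-216a and miR-217, miRNAs of the enzyme-secreting pancreas around the islets, had a summed scaled signal of 312.4 to 676.2 in row 1 and 31.2 to 265.9 in row 2. miR-217 was at the floor on all 8 arrays of that slide, so the sum varies with miR-216a alone, whose HFD minus Control difference was 0.68 ± 0.84 (SE; limma adjusted p = 0.987). The part of acinar RNA in the levels of the pair was not tested.

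**Figure D4:**
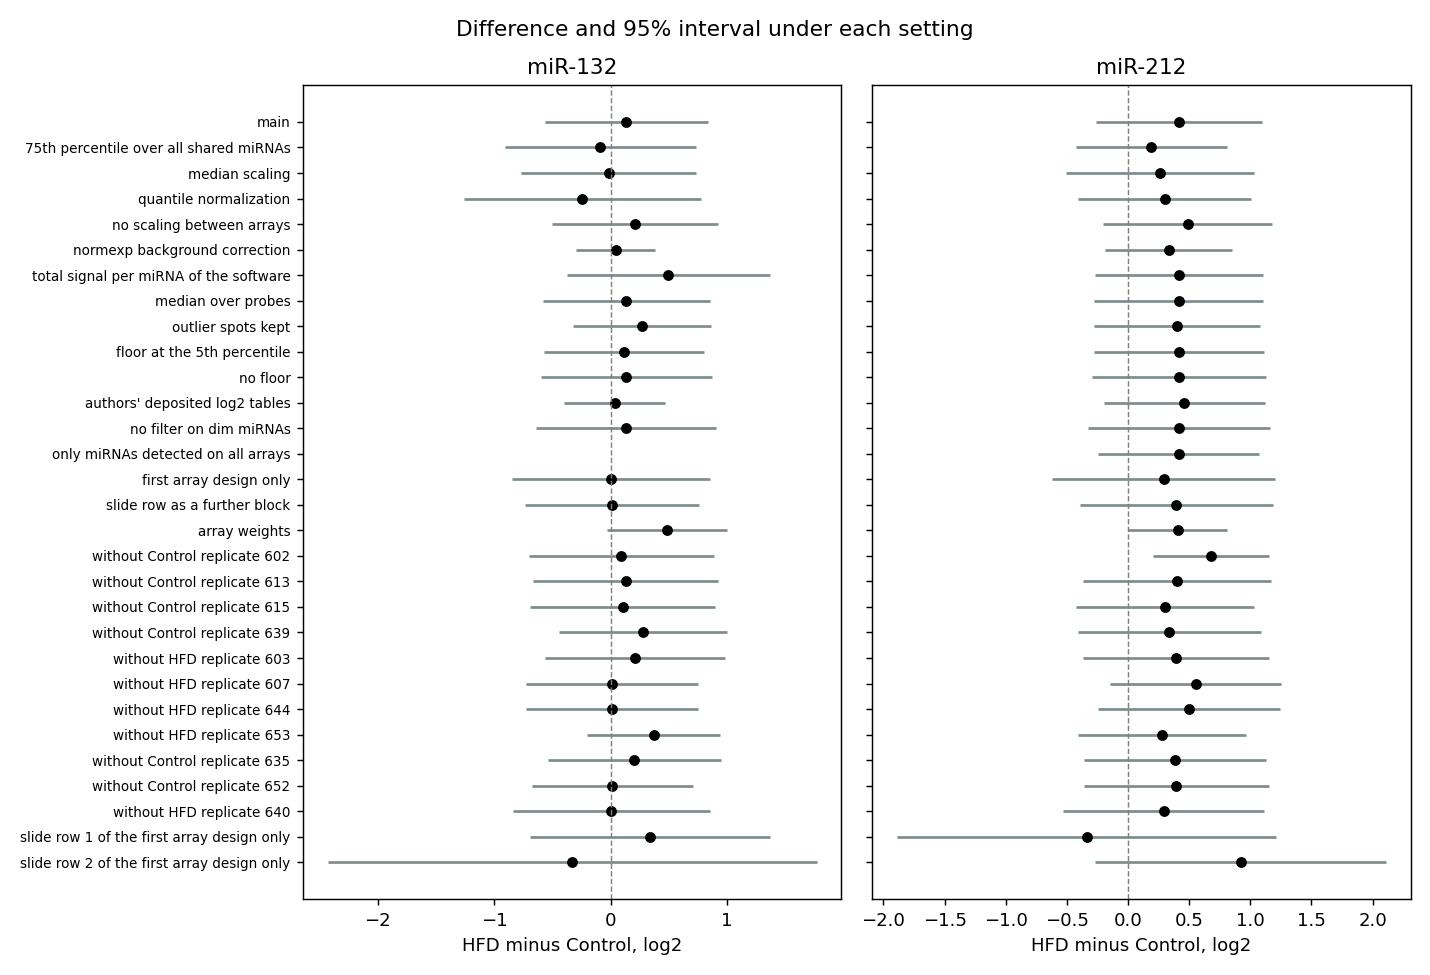
HFD minus Control difference on the log2 scale (points) with its 95% interval (bars) for miR-132 (left panel) and miR-212 (right panel) under each setting, the main one at the top. All intervals for miR-132 span 0, and for miR-212 the interval without Control 602 lies above 0 before any adjustment.

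The other arms of the same hairpins were not detected. miR-132* and miR-212* were on the second array design only, and neither was detected on HFD 640 or on Control 635 and 652. Their summed probe signals were 5.52 on HFD 640, against 4.73 and 0.426 on Control 635 and 652, for miR-132*, and below 0 on all 3 arrays for miR-212*. The negative control spots of those arrays had SDs of 9.04, 8.76 and 7.18, so a level of the 5p arms could not be read.

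The miRNAs whose pattern was most like that of each member were different ones. Likeness was Pearson's r of design-centred log2 levels over the 11 arrays, which share their scaling and brightness, and it is a description without a test. For miR-132 the 5 closest of 151 were miR-376a (r = 0.79), miR-30a* (0.78), miR-411 (0.78), miR-376c (0.77) and miR-335 (0.77). miR-376a, miR-411 and miR-376c come from the large imprinted miRNA cluster of the Dlk1-Dio3 locus, miR-30a* is the second arm of the miR-30a hairpin, and miR-335 lies in the imprinted gene Mest. All 5 were, like miR-132, missed on some arrays, with detection on 7 to 10 of 11. For miR-212 the 5 closest were miR-296* (0.83), miR-347 (0.81), miR-324-3p (0.79), miR-188 (0.78) and let-7a (0.76), the last a member of the growth-restraining let-7 family. Among them miR-188 was detected on 5 of 11 arrays and miR-296* on 9, while miR-347, miR-324-3p and let-7a were detected on all 11. In these orders miR-212 ranked 128th for miR-132 and miR-132 ranked 103rd for miR-212, both at r = -0.42. None of these 10 miRNAs passed limma's test (adjusted p = 0.987 for each), with HFD minus Control differences of -0.13 to 0.58.

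miRNAs reported beside miR-132 or miR-212 in islets of obese or diabetic rodents did not pass either. Of 15 listed, 10 were tested, 0 passed in either direction, 7 read above 0 and 3 below, and the median difference was 0.043, against 0.066 over all 152. Those of smallest p were miR-210, a miRNA induced by low oxygen, at -0.28 ± 0.14, miR-383 at 0.41 ± 0.26 and miR-335 at 0.25 ± 0.35 (SE; limma adjusted p = 0.987 each). Of 10 activity-regulated or neuronal miRNAs, 4 were tested, 0 passed, 2 read above 0 and 2 below, with a median of -0.0015. Those of smallest p were miR-128 at 0.14, miR-153 at -0.23 and miR-129 at 0.15 (limma adjusted p = 0.987 each). The other 6, among them miR-124 and miR-9, which mark neurons, were detected on no array.

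Markers of other cells in the preparation also varied between arrays. The leukocyte list, of which 2 of 5 were tested, ran from 39.5 to 337.2 in summed scaled signal on first-design HFD arrays, against 40.9 to 46.0 on Control arrays, with miR-150 at a difference of 1.73 ± 0.61 (SE; limma adjusted p = 0.987, and 1.79 ± 0.37 with adjusted p = 0.000621 when arrays were not scaled). miR-150 was detected on 7 of 11 arrays. Its first-design log2 values were 3.36 to 3.65 in Control, at or near the floor of 3.36, and 3.74 to 7.71 in HFD, so its difference rests partly on readings near the floor. On the second design the leukocyte sum was 132.9 on HFD 640, against 134.4 and 73.3 on Control 635 and 652, so a Control array there was as high as the HFD array. On the first design the highest array was HFD 603, followed by HFD 653 at 126.6, and these were also the HFD arrays with the highest miR-212 and the lowest miR-132 of that slide. Control 602, with the highest miR-212, read 46.0 for that list and 628 for the acinar list, which was the second highest acinar value after 676.2 on HFD 603. The endocrine list ran from 20182 to 23726 on HFD arrays and from 19934 to 24819 on Control arrays of the first design, with Control 602 and HFD 603 at the lower end of each. The fibroblast list, of which 3 of 5 were tested, ran from 291.2 to 611 in HFD and 282.7 to 473.3 in Control, and the endothelial list, with 1 of 2 tested, from 360 to 623.2 and 398.1 to 511.6. miR-451 of red blood cells was at the floor on that slide. On the second design it was above the floor, at 26.4 on HFD 640, against 50.8 and 21.6 on Control 635 and 652. The liver marker miR-122 was detected on no array. The part of these cells in the levels of miR-132 and miR-212 was not tested, and in whole islets more cells of a type and more RNA per cell cannot be told apart.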

How the data were processed

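Cy3-labelled total RNA (100 ng) was put, per the labels, on Agilent miRNA arrays of 1 colour. The deposited spot intensity was written by Feature Extraction 10.5.1.1 (first design) or 10.7.3.1 (second), per the file headers, with background subtracted and no scaling from array to array. The authors also deposited log2 tables, equal to log2 of the software's total signal plus 50 on the first design, and without the 50 on the second, where undetected miRNAs are blank. All 340 values of each first-design array matched within 0.01, and on the second design 127 of 130 (Control 635), 161 of 163 (Control 652) and 182 of 184 (HFD 640) did. Column medians over the shared names ran from 5.68 to 5.83 on the first design and from 6.69 to 7.01 on the second. The submitters' processing notes list RMA and Partek, whose roles are not given in the sources used here.

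Spots with an outlier flag were left out, spots were averaged per probe and probes summed per miRNA. Scaling divided an array by the 75th percentile of the 85 miRNAs that every array detected. A floor was set at the 1st percentile of detected scaled signals (10.3, or 3.36 on the log2 scale) before log2 was taken. HFD minus Control was fitted in limma 3.58.1 (R 4.3.3), with a term for array design. P-values were adjusted over 152 miRNAs by Benjamini-Hochberg, with a threshold of 0.05, and single values were also tested by exact permutation of labels within design (210 splits, smallest p 0.0048). The number of arrays limits the precision. The fit was tried on simulated data (152 miRNAs, 30 of them altered, normal noise, no floor). The noise was drawn separately for each miRNA, whereas miRNAs of a real array share its scaling and brightness. There the fit found 49.0% of those altered by 0.5 on the log2 scale, 79.5% at 1 and 97.0% at 2. Of its calls, 2.03% were false. These shares are averages over miRNAs drawn from all 152, whose median standard error was 0.18. They do not hold for miR-132 and miR-212, whose standard errors were wider, at 0.31 and 0.30, and whose own shares were not computed. Normexp was run on spot medians, with an offset of 50. Named miRNAs were the 2 members, the 5 most alike of each, up to 3 of smallest p per list and the most extreme marker per cell type. Members and lists were chosen with earlier results of these data known. Alternatives were other scalings, summaries, floors, filters and blocks, and leaving out each array. The slide rows and 4 of the 5 relations across arrays were added after the data were seen.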

Additional observations from a re-analysis of the deposited data

How the results depend on the processing

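No paired analysis was possible because the labels give every sample its own number. The miR-132 difference read -0.090 with the scaling percentile taken over every shared name, -0.018 under scaling by medians and -0.24 under quantile normalisation, settings that moved the median of all tested miRNAs by -0.21, -0.15 and -0.14 and left miR-132 at 0.056, 0.066 and -0.17 relative to it (0.069 as reported). It was -0.33 in slide row 2. With array weights it read 0.49 ± 0.23 (SE; limma unadjusted p = 0.0620, adjusted p = 0.857), and miR-212 read 0.40 ± 0.18 (SE; limma unadjusted p = 0.0513, adjusted p = 0.826). The highest miR-132 difference, 0.50 ± 0.39 (SE; limma adjusted p = 0.960), came with the software's total signal, where Control 635 and 652 are at the software's lowest value. In slide row 1 the miR-212 difference read -0.34 and the miR-212 minus miR-132 difference -0.67, which was -0.080 with the software's total signal. With no scaling between arrays limma called 1 miRNA, miR-150, which is not a member and was detected on 7 of 11 arrays. The relation between the members had r = 0.59 with normexp. Leaving out each array in turn gave 0.0028 (without HFD 640) to 0.37 (without HFD 653) for miR-132, 0.28 (without HFD 653) to 0.68 (without Control 602) for miR-212, -0.088 (without HFD 653) to 0.59 (without Control 602) for their difference, and 0 called miRNAs each time. For r it gave -0.82 (without Control 615, exact permutation p = 0.0331) to -0.46 (without HFD 653). Neither member passed the test under the alternatives that gave it a value (28 for miR-132, 29 for miR-212; lowest adjusted p 0.843 and 0.776). The relation has no value with array weights or other filters, and miR-132 has none among miRNAs detected on all arrays. In the deposited tables miR-132 is blank on Control 635 and 652, so its value there, 0.037, rests on the first design. The cause of these changes was not tested. Signal over background limits miR-132, which was not detected on 3 of 11 arrays.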
